A study of Mus musculus with 12 samples.

Results

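The genes described here encode the machinery that writes, reads and erases trimethylation of histone H3 at lysine 27 (H3K27me3), together with its COMPASS counterparts: 38 genes chosen by name from a total of 21631 protein-coding genes on chromosomes 1 to 19 and X. All 38 were found in the RefSeq annotation of GRCm38.p6 (mm10). A gene was said to carry the mark when an H3K27me3 peak overlapped its gene body, extended by 2 kb at each end, by at least 1 bp. The mark was mapped in epidermal cells of female mice by CUT&RUN, which frees antibody-bound chromatin with a tethered nuclease. The WT group was Cre-; Utx fl/fl and the Utx-cKO group was Cre+; Utx fl/fl, with 3 animals each, so that both groups carried floxed Utx (Kdm6a) alleles and the Cre, driven by Krt14, was present in Utx-cKO alone. Krt14-Cre acts in keratin-14 expressing tissue, so other cells of an epidermal suspension could keep Utx. The sources used here give neither ages nor the floxed exons.

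The lists held 7826 WT and 8914 Utx-cKO peaks, each called by the authors on the merged animals of a group. No value below therefore has a replicate error, no test was made, and the lists are set side by side. Sequencing depth is unknown, and IgG libraries were not analysed here. In such a cell mixture, the mark in fewer cells and less of it per cell cannot be told apart. Signal values are the authors' own and are used to rank peaks within a list: a percentile is the share of the list's peaks with an equal or lower total signal. No value in the lists measures Kdm6a deletion. In a check of the tissue on genes of known cell type, none of 5 basal and 4 suprabasal keratinocyte genes carried the mark in either list, nor did any of 3 endothelial genes. Of 5 fibroblast genes 4 carried it in both lists, of 5 melanocyte genes 2, and of 4 immune genes all 4. All these marker genes are autosomal, and 16.1% of autosomal protein-coding genes carried a WT peak and 17.6% a Utx-cKO peak. With sets this small, a set without a marked gene lies near that share and does not identify a tissue, and none was tested.

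H3K27me3 is laid down by Polycomb repressive complex 2 (PRC2), whose catalytic subunit is EZH1 or EZH2 and whose EED subunit binds the finished mark. PRC1 ubiquitinates histone H2A through RING1 or RNF2, and its forms differ in their PCGF, PHC and RYBP or YAF2 subunits. UTX (Kdm6a) and JMJD3 (Kdm6b) remove the mark, and UTX is also a subunit of the COMPASS-like complexes built on KMT2C and KMT2D, which methylate histone H3 at lysine 4. In epidermis, Polycomb is known to hold back differentiation genes in progenitors, and its own subunits are broadly expressed.

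The mark was called at 6 of the machinery genes in at least 1 list, and at none of the enzymes that write or erase it. In WT, 4 of 38 genes (10.5%) carried a peak, namely Rbbp7, Pcgf1, Phc1 and Yaf2, where 18.0% of all protein-coding genes did. In Utx-cKO, 5 of 38 (13.2%) carried 1, namely Rbbp7, Pcgf1, Phc1, Aebp2 and Kmt2a, against 19.5% of all protein-coding genes. Rbbp7, Pcgf1 and Phc1 carried the mark in both lists, and 32 genes in neither. Of all protein-coding genes, 16.4% carried it in both, 1.64% in WT alone and 3.13% in Utx-cKO alone. These shares differ from those of all genes by few genes, have no replicate error and are given as a description. Neither writer, Ezh1 or Ezh2, the reader Eed, nor either eraser, Kdm6a or Kdm6b, had a peak in either list.

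Over the gene body itself, and on autosomes, the counts were as follows. A WT peak lay over the body of 1 of 36 autosomal machinery genes (2.78%), against 14.1% of protein-coding genes, and a Utx-cKO peak over that of 2 of 36 (5.56%), against 15.3%. With 2 kb flanks, 3 of 36 (8.33%) carried a WT peak, against 16.1%, and 4 of 36 (11.1%) a Utx-cKO peak, against 17.6%. The machinery genes were longer than other autosomal genes, with a median of 33.5 kb against 17.5 kb. Among autosomal protein-coding genes within the machinery genes' interquartile range of length, 15.9% carried a WT peak and 17.2% a Utx-cKO peak by the same rule with 2 kb flanks. Other rules gave these shares over all 38 genes. With the gene body alone 2 WT genes (5.26%) and 3 Utx-cKO genes (7.89%) carried a peak, against 16.0% and 17.1% of protein-coding genes. With 5 kb flanks 5 (13.2%) and 7 (18.4%) did, against 19.7% and 21.3%. Within 2 kb of a start, or of a gene end where none was listed, 4 (10.5%) and 2 (5.26%) did, against 14.6% and 15.7%. Pcgf1 in both lists and Yaf2 in WT were counted there by a gene end. With at least 1 kb covered 3 (7.89%) and 4 (10.5%) did, against 17.3% and 18.6%. With at least 50% of the region covered 1 (2.63%) did in each list, against 7.23% and 7.81%. The top 50% of each list left 2 (5.26%) in each, against 12.3% and 13.2%. Equal numbers of peaks left 4 (10.5%) and 5 (13.2%), against 18.0% and 18.1%. Each of these counts is 7 genes or fewer, some lie near the share of all genes, and none was tested.

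The promoters of Phc1, Rbbp7 and Kmt2a are shown because distances from their starts to peak borders are given below. That of Kdm6a is shown as the deleted gene, and its start lay 17125 bp from the nearest WT peak and 17175 bp from the nearest Utx-cKO peak. Each printed promoter is the 250 bases before the annotated start (RefSeq, GRCm38.p6), 5′ to 3′ on the strand of the gene, with each CpG in capitals. The positions are chr6:122340228-122340477 on the minus strand for Phc1, chrX:162760122-162760371 on the plus strand for Rbbp7, chr9:44881290-44881539 on the minus strand for Kmt2a and chrX:18162325-18162574 on the plus strand for Kdm6a.
Phc1: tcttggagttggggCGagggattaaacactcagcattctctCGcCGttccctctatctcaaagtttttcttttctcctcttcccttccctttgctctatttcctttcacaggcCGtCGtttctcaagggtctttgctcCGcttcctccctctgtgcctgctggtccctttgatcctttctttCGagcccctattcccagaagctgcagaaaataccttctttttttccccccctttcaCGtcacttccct
Rbbp7: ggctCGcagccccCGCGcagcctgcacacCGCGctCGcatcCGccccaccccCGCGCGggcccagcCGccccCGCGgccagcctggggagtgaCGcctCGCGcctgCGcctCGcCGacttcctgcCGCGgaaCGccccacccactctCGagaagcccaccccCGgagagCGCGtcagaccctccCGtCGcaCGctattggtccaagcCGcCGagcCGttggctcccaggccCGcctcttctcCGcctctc
Kmt2a: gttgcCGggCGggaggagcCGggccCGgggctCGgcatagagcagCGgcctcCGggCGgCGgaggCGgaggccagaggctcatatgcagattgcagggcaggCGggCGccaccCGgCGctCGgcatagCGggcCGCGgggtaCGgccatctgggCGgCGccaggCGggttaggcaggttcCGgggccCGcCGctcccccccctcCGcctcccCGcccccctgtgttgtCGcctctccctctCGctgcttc
Kdm6a: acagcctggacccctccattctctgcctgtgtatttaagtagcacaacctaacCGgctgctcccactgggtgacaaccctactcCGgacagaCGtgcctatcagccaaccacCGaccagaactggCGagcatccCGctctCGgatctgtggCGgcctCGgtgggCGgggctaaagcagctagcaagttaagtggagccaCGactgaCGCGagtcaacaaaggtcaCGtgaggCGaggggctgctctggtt

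Phc1, which encodes a polyhomeotic subunit of canonical PRC1, was the autosomal gene of the list with a domain over its body in both genotypes. It lies at chr6:122317731-122340227 on the minus strand. In WT, 1 peak of 43.5 kb (chr6:122331501-122375000) covered 40.5% of the gene with its flanks, at percentile 91.3 and with a maximum signal of 30.6. It ran without a break from 8727 bp inside the gene across the start and on upstream. In Utx-cKO, 2 peaks lay within the same stretch and together covered 29.4% of the region. The first, of 6.65 kb (chr6:122332851-122339500), lay inside the gene at percentile 26.4. The second, of 30.4 kb (chr6:122341101-122371450), lay upstream at percentile 87.0 with a maximum of 28.9. The 1600 bp gap between them held the Phc1 start, 727 bp from the first peak and 874 bp from the second, and with it the promoter printed above. WT peaks covered 100% of both Utx-cKO peaks, and Utx-cKO peaks covered 85.1% of the WT peak. Neither maximum of the wide peaks lay in the gene: the WT maximum was 2974 bp and the Utx-cKO maximum 2874 bp upstream of it, with no other named protein-coding gene under either peak.

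Pcgf1, which encodes the PCGF subunit of the variant PRC1 complex that holds KDM2B, carried a peak by its flank alone. The gene (chr6:83077552-83080855) lies between domains at developmental homeobox genes. On the upper side, a peak at Lbx2 (chr6:83081651-83100000 in WT and chr6:83081301-83101650 in Utx-cKO) began 796 bp past Pcgf1 in WT and 446 bp past it in Utx-cKO. It stood at percentile 86.8 in WT and 89.5 in Utx-cKO, with maxima of 54.2 and 53.3 that lay over Lbx2, 6496 bp from Pcgf1, in both lists. On the lower side, a peak over Dqx1 and Tlx2 ended 8802 bp before Pcgf1 in both lists. In Utx-cKO a further peak of 2.05 kb (chr6:83071401-83073450), with a maximum of 43.6 and no WT counterpart, ended 4102 bp before the gene. The Pcgf1 body itself held no peak in either list.

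Rbbp7, which encodes a histone-binding WD40 subunit of PRC2 and of other chromatin complexes, was the most fully covered gene and lies on X (chrX:162760372-162779090, plus strand). Of X-linked protein-coding genes, 59.4% carried a WT peak and 60.6% a Utx-cKO peak by the same rule, and the inactive X of females is known to be rich in H3K27me3. Peaks covered 79.8% of the Rbbp7 region in WT and 64.9% in Utx-cKO. The peak over the body was low. It had a maximum of 8.56 (percentile 28.3 by total signal) in WT and 8.83 (percentile 20.6) in Utx-cKO, below the median maximum of X peaks of 9.34 and 9.63. A second peak at the 3′ side reached over the neighbour Txlng in both lists, with maxima of 9.6 in WT and 9.63 in Utx-cKO, not below those medians. The start and the promoter printed above were free of peaks in both lists. The peak over the body began 829 bp after the start in WT (chrX:162761201-162779150) and spanned chrX:162764101-162777150 in Utx-cKO. An upstream peak in Utx-cKO (chrX:162741651-162758250), without a WT counterpart, ended 2122 bp before the start.

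Yaf2, Aebp2 and Kmt2a each carried the mark in 1 list, on a weak peak at the edge of the gene. YAF2 is an alternative to RYBP in variant PRC1. Its gene (chr15:93283833-93336935) had a WT peak of 19.6 kb (chr15:93338751-93358350) that began 1816 bp beyond the gene, covered 0.324% of the region and stood at percentile 18.2. The nearest Utx-cKO peak lay 53.8 kb from Yaf2, on the other side. AEBP2 is a zinc finger subunit of PRC2. In Utx-cKO a peak of 17.2 kb (chr6:140675351-140692600) overlapped the last 3122 bp of Aebp2 (chr6:140622454-140678472, plus strand), 8.53% of the region, at percentile 20.6. It lay 48466 bp from the nearest listed start of the gene, and the nearest WT peak was 1730 kb away. KMT2A is a histone H3 lysine 4 methyltransferase of the COMPASS family known for keeping Hox genes active. In Utx-cKO a peak of 16.4 kb (chr9:44883301-44899650) began 1949 bp upstream of Kmt2a (chr9:44803355-44881352, minus strand) and reached 52 bp into the 2 kb flank, at percentile 35.0 with a maximum of 9.1. It stopped 2012 bp short of the start that follows the promoter printed above, and the nearest WT peak lay 88.6 kb away, over Cd3d and Cd3g. None of these 3 peaks overlapped a peak of the other list.

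**Figure D1:**
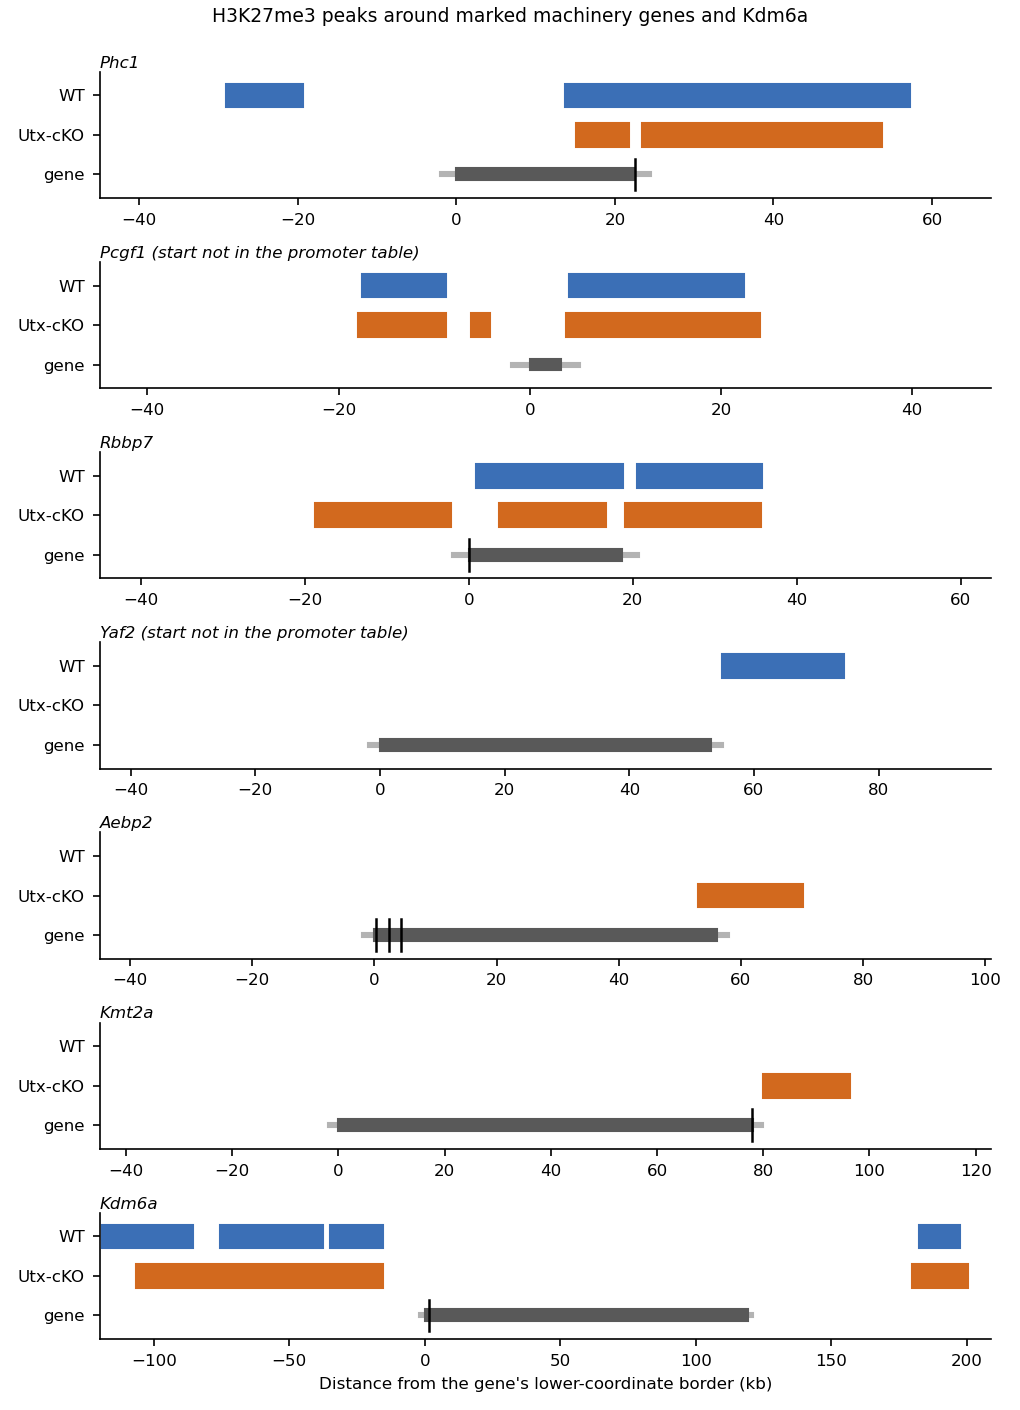
Peaks of the WT list (blue) and the Utx-cKO list (orange) around the 6 marked genes and Kdm6a, drawn to scale in kb from each gene's lower-coordinate border. Dark bars are gene bodies, pale bars their 2 kb flanks, and black ticks the starts listed in the promoter table; the Phc1 start falls inside the WT peak and in the 1600 bp gap of Utx-cKO.

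By signal, the peaks at the marked genes fell into a high group at Pcgf1 and Phc1 and a low remainder. The Pcgf1 maxima lay over Lbx2, and those of the wide Phc1 peaks lay upstream of the gene. The peaks at Pcgf1 and the wide peaks at Phc1 had maxima between 28.9 and 54.2, above the median of each list (13.8 for WT, 12.8 for Utx-cKO). The short Utx-cKO peak inside Phc1 had a maximum of 23.0. The peaks at Rbbp7, Yaf2, Aebp2 and Kmt2a had maxima between 8.56 and 9.63, below those medians. Rbbp7 lies on X, where the median maximum of peaks was lower, 9.34 in WT and 9.63 in Utx-cKO.

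**Figure D2:**
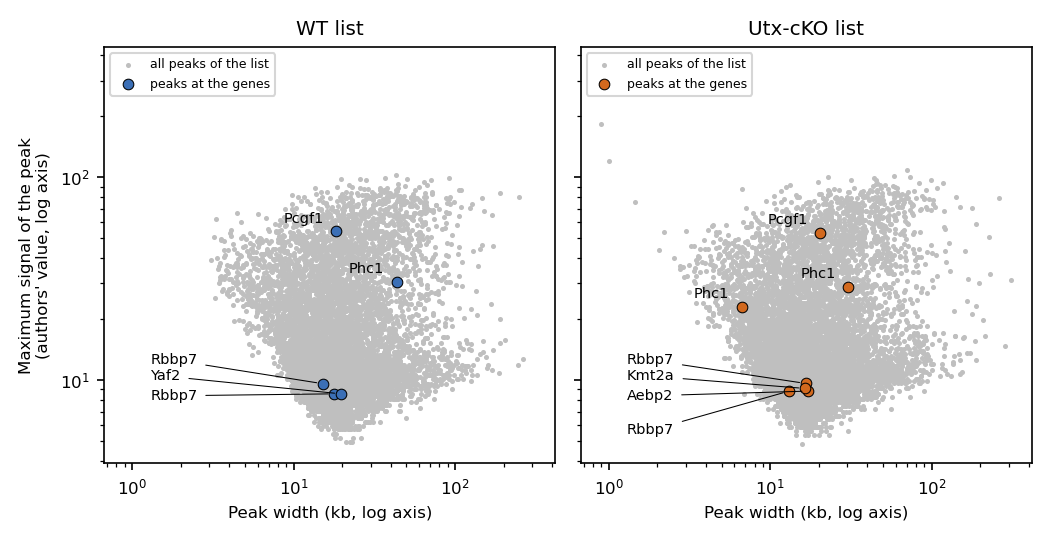
Maximum signal (authors' value, log axis) against width (kb, log axis) of every peak in each list (grey) and of the peaks in the gene regions (coloured, named). The peaks at Pcgf1, with maxima over Lbx2, and at Phc1 lie above the median maxima of 13.8 (WT) and 12.8 (Utx-cKO). Those at Rbbp7, Yaf2, Aebp2 and Kmt2a lie below these medians, and all lie within the cloud of peaks.

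Kdm6a, the deleted gene, lay free of peaks between domains found in both lists. It spans chrX:18160862-18279936 on the plus strand and is known to escape X inactivation. The domain before it ended 15.4 kb from the gene in WT, at 18145450, and 15.5 kb from it in Utx-cKO, at 18145400. In WT that stretch was made of 3 peaks, of which the nearest was 19.7 kb wide (chrX:18125751-18145450). In Utx-cKO 1 peak of 91.1 kb (chrX:18054301-18145400) took their place, 86.6% of it covered by WT peaks. Behind the gene the next peak began 63.4 kb away in WT and 60.6 kb away in Utx-cKO. Kdm6b, the autosomal demethylase (chr11:69398508-69420367), had its nearest peak at 177 kb in WT and 185 kb in Utx-cKO. Both distances lay within the interquartile range of autosomal protein-coding genes, 21.3 to 357 kb in WT and 15.8 to 305 kb in Utx-cKO.

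Of the other PRC2 core genes, none had a peak in its region, and the least distance was 34.1 kb, at Ezh1 in Utx-cKO. Ezh2, the catalytic subunit of dividing cells, had its nearest peak at 205 kb in WT and 219 kb in Utx-cKO, inside Cntnap2 in both. Ezh1, the other catalytic subunit, had it at 656 kb in WT and 34.1 kb in Utx-cKO. The Utx-cKO peak near Ezh1 lay over Wnk4 at percentile 0.314, among the lowest of the list. Suz12, the scaffold of PRC2, had its nearest peak at 848 kb in WT and 852 kb in Utx-cKO. Eed stood at 495 kb in WT and 285 kb in Utx-cKO, and Rbbp4, the autosomal paralogue of Rbbp7, at 176 kb and 99.9 kb.

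Among the PRC2 accessory genes other than Aebp2, Phf19 came closest to a peak. PHF19 is a Polycomb-like protein that helps PRC2 bind chromatin. Its gene (chr2:34893752-34914353) had a peak over Cutal at 4.15 kb in Utx-cKO, at percentile 3.52, and none nearer than 765 kb in WT. Its relatives Mtf2 and Phf1 lay at 252 kb and 64.8 kb in WT, and at 253 kb and 64.8 kb in Utx-cKO. Jarid2, which encodes a cofactor that recruits PRC2, lay at 132 kb in WT and 135 kb in Utx-cKO.

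Of the PRC1 genes, Phc1 alone had a peak over its body, and the distances of the others to a peak ranged widely. Bmi1 (Pcgf4), the canonical PCGF subunit known for repressing the Ink4a/Arf locus, lay next to 1 of the strongest domains. A peak over Spag6 (chr2:18690401-18721800 in WT, chr2:18690451-18719550 in Utx-cKO) began 3772 bp after Bmi1 in WT and 3822 bp after it in Utx-cKO. It stood at percentile 96.7 in WT and 96.6 in Utx-cKO, with maxima of 82.5 and 77.3. Upstream, a WT peak at percentile 12.8, 23.0% of it covered by Utx-cKO peaks, ended 5018 bp before Bmi1. The nearest upstream Utx-cKO peak ended 12368 bp before Bmi1. Pcgf6, of a variant complex with E2F6, had a peak over Ina 5.77 kb away in WT and 6.57 kb away in Utx-cKO. Rybp had a wide domain 13.6 kb away in WT (58.6 kb wide, percentile 92.8) and 10.3 kb away in Utx-cKO (92.8 kb wide, percentile 97.2). The ubiquitin ligase genes Rnf2 and Ring1 lay at 31.0 kb and 293 kb from a peak in WT and at 33.1 kb and 293 kb in Utx-cKO. Of the rest, Pcgf3 stood at 43.5 kb in WT and 32.4 kb in Utx-cKO, Pcgf5 at 67.0 kb and 13.0 kb, and Phc2 at 93.5 kb and 364 kb. Pcgf2, Phc3 and Kdm2b lay over 113 kb from a peak in both lists.

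Of the COMPASS genes, Kmt2a alone came within 2 kb of a peak. Kmt2d, the methyltransferase that UTX joins, lay between a peak over Dhh, 22.0 kb off in the WT list and 20.4 kb off in the Utx-cKO list, and a peak at Wnt1, 26.1 kb and 27.5 kb off. Its paralogue Kmt2c had a WT peak at percentile 2.08 at 57.2 kb, without a Utx-cKO counterpart, and the nearest Utx-cKO peak at 215 kb. Kmt2b, the paralogue of Kmt2a, lay 39.3 kb from a peak at Etv2 in WT and 38.6 kb from it in Utx-cKO. Of the shared core, Rbbp5 lay at 21.8 kb in WT and 25.5 kb in Utx-cKO, while Wdr5, Ash2l and Dpy30 lay 240 kb or more from a peak in both lists. Paxip1, a subunit of the KMT2C and KMT2D complexes, had a Utx-cKO peak at 9.88 kb (percentile 22.8) and its nearest WT peak at 315 kb. Ncoa6, of the same complexes, stood at 293 kb in WT and 294 kb in Utx-cKO, and Men1, of the KMT2A and KMT2B complexes, at 78.3 kb and 78.2 kb.

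**Figure D3:**
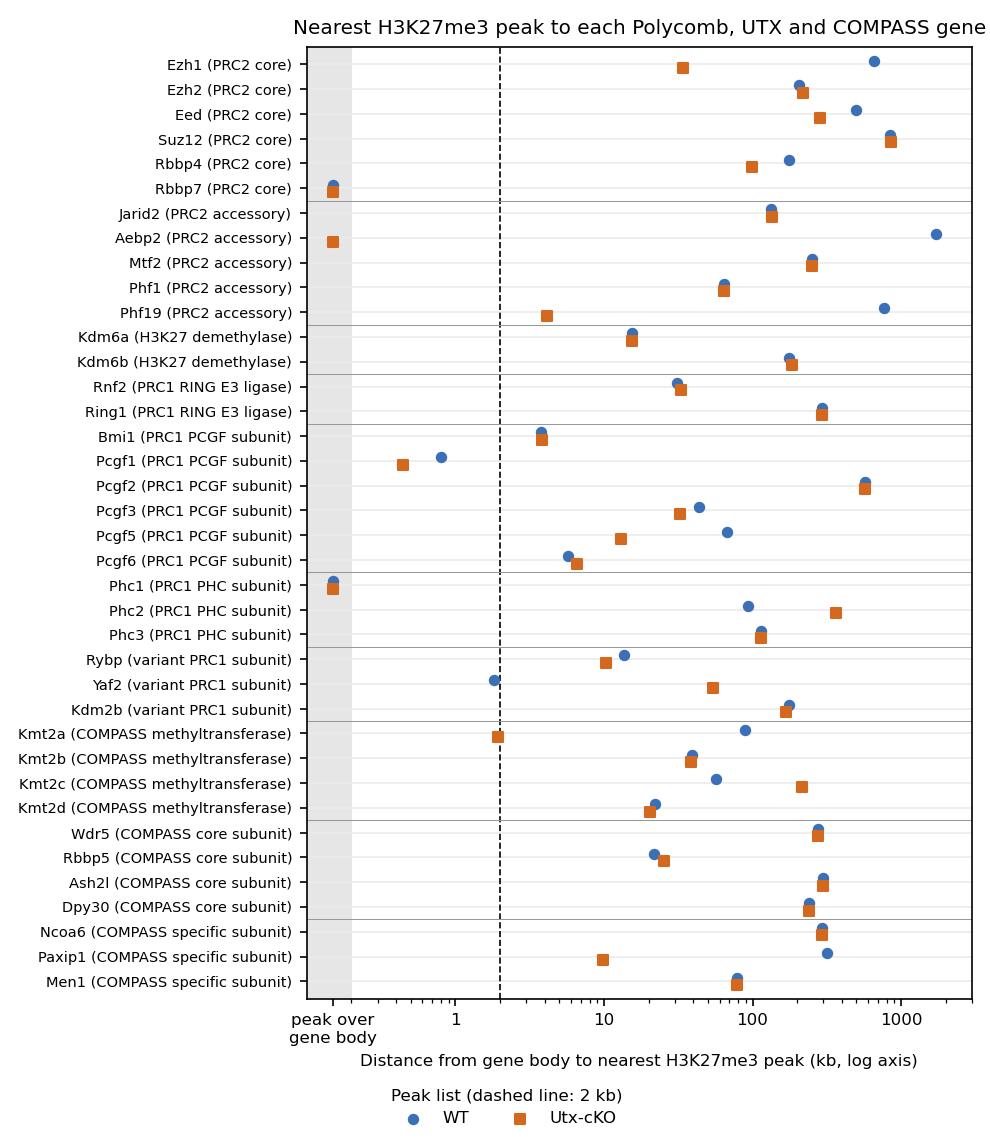
Distance in kb (log axis) from each of the 38 gene bodies to the nearest peak of the WT list (blue circles) and the Utx-cKO list (orange squares), ordered by role; symbols in the grey band mark a peak over the body and the dashed line the 2 kb flank. Yaf2 at 1.82 kb (WT) and Kmt2a at 1.95 kb (Utx-cKO) lie just inside the flank, and Bmi1 at 3.77 and 3.82 kb just outside.

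The positions of the nearest peaks differed little between lists for most genes. For 23 of 36 autosomal machinery genes (63.9%) the distances were within 10 kb of each other, as for 68.5% of autosomal protein-coding genes. For 9 (25%) a peak was over 10 kb nearer in Utx-cKO, against 21.9% of all, and for 4 (11.1%) in WT, against 9.67% of all, shares close to those of other genes. Of the 9 peaks nearer in Utx-cKO, 8 had no WT counterpart, and they stood at a median percentile of 20.6 (0.314 to 57.9). Of the 4 nearer in WT, 3 had no Utx-cKO counterpart, and they stood at a median percentile of 22.4 (2.08 to 85.9). Choosing genes by a gap of over 10 kb between the lists leaves little room for a counterpart. The counts without a counterpart thus follow largely from that choice, and the same share over all genes was not computed.

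The distances of the autosomal machinery genes to peaks overlapped widely with those of other genes. The median distance was 123 kb in WT, against 116 kb for autosomal protein-coding genes, and 71.5 kb in Utx-cKO, against 98.5 kb. The interquartile range was 37.2 to 293 kb in WT, against 21.3 to 357 kb for all, and 12.4 to 244 kb in Utx-cKO, against 15.8 to 305 kb. Within 10 kb of a WT peak lay 13.9% of the machinery genes and 20.1% of all, within 50 kb 30.6% and 34.9%, within 100 kb 47.2% and 46.9%, and within 500 kb 86.1% and 81.9%. Within 10 kb of a Utx-cKO peak lay 22.2% of the machinery genes and 22.1% of all, within 50 kb 44.4% and 37.9%, within 100 kb 55.6% and 50.3%, and within 500 kb 94.4% and 84.6%. In both lists the machinery genes' share was the lower over the body and the higher within 500 kb.

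**Figure D4:**
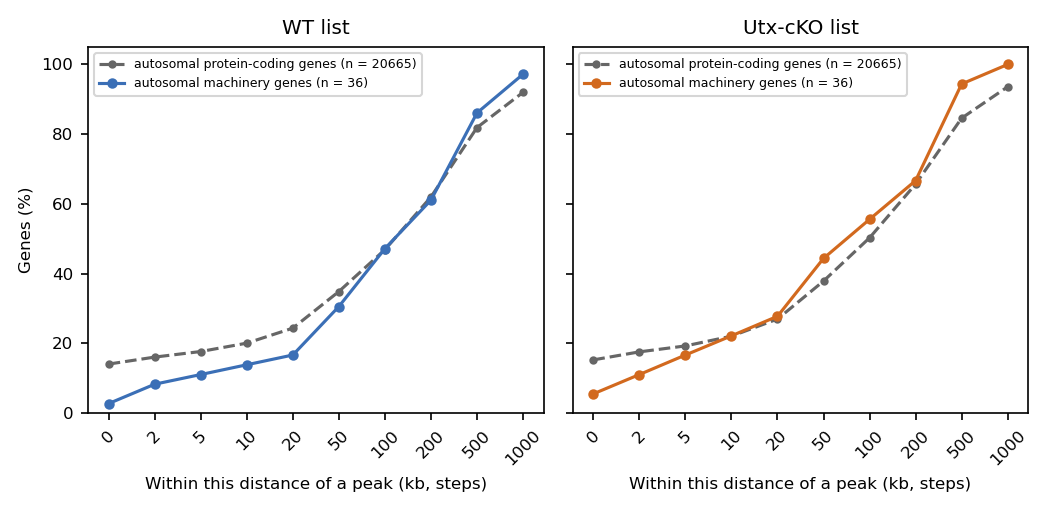
Share of autosomal machinery genes (solid) and of all autosomal protein-coding genes (dashed) within a given distance of a peak (kb, steps not to scale; 0 means a peak over the body), for each list. The machinery curve starts lower at 0 (2.78% against 14.1% in WT, 5.56% against 15.3% in Utx-cKO) and lies higher at 500 kb (86.1% against 81.9%, 94.4% against 84.6%).

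The promoters of the machinery genes were rich in CpG, and 1 of them lay under a peak. The promoter table held 32 of the 38 genes. The richest listed promoter of a gene had a median of 22.5 CpG in 250 bases, against 11.0 for all 17274 protein-coding genes in the table, and 90.6% against 53.7% had at least 10 CpG. The motif counted was CG, which reads the same on both strands. Genes with a promoter under a WT peak had a median of 11.0, as did those under a Utx-cKO peak. The promoter of Phc1 was the 1 under a WT peak, and no promoter of a machinery gene met a Utx-cKO peak, where 10.4% and 11.0% of all genes had such a promoter. Phc1 had 8 CpG, the 3rd lowest of the 32 after Ncoa6 with 1 and Pcgf2 with 5, and 56.1% of all promoters had at least as many. The Rbbp7 promoter had 34 CpG, Kmt2a 29 and Kdm6a 15, numbers reached by 4.5%, 8.86% and 37.0% of all promoters.

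**Figure D5:**
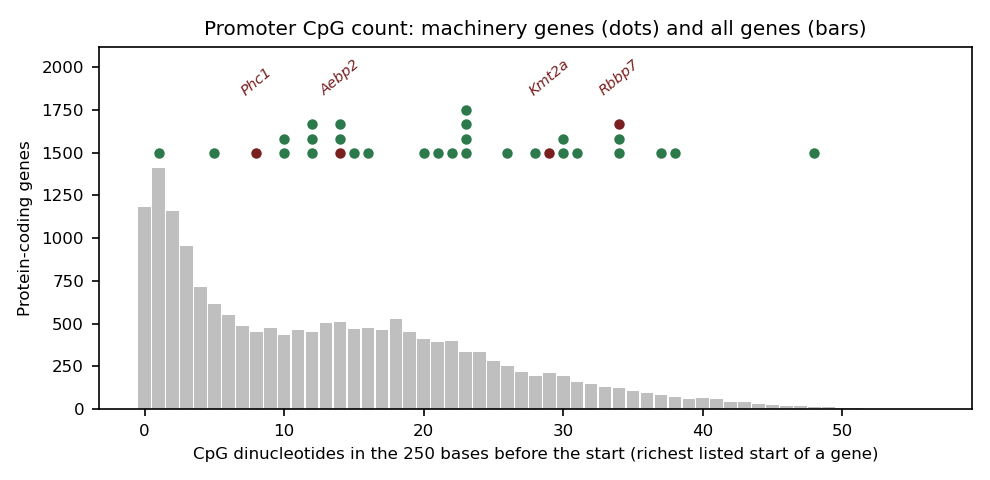
Number of CpG in the 250 bases before the start (richest listed start of a gene) for all protein-coding genes (grey bars, number of genes) and for the 32 machinery genes in the table (dots, stacked, height without meaning; the 4 marked genes in the table in red and named). Most dots lie to the right of the bulk of genes, and Phc1, with 8 CpG, lies among the lowest.

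Other genes of the Polycomb and COMPASS systems that carried the mark lay in equal numbers on X and on autosomes. Of 42 further genes in the annotation, the WT list marked 10 (23.8%) and the Utx-cKO list these 10 and 2 more (28.6%). Of all protein-coding genes, 18.0% and 19.5% carried the mark. On X the marked genes were 5 of 6 in WT and 6 of 6 in Utx-cKO, against 59.4% and 60.6% of X-linked protein-coding genes. On autosomes they were 5 of 36 (13.9%) and 6 of 36 (16.7%), against 16.1% and 17.6% of autosomal protein-coding genes. Ogt, the X-linked O-GlcNAc transferase, was covered over 87.5% of its region in WT and 63.8% in Utx-cKO. The X-linked Scml2, a PRC1-associated gene, was covered over 44.8% and 63.2%, Bcorl1 over 32.4% and 54.7%, and its relative Bcor, a corepressor in the PCGF1 complex, over 23.6% and 45.8%. Ezhip, which encodes an inhibitor of PRC2, was covered over 49.7% and 33.4%, by peaks that did not overlap each other. The WT peak (chrX:6048401-6082300) ended inside the gene, and the Utx-cKO peak (chrX:6083351-6106700) met its promoter. Other WT peaks, outside the Ezhip region, covered 88.4% of that Utx-cKO peak. Among autosomal genes Scmh1, a PRC1 subunit, was covered over 12.2% and 24.6%. Hcfc1, an X-linked COMPASS cofactor, and Lcorl, a PRC2 cofactor gene, carried the mark in Utx-cKO alone, on peaks at percentiles 8.2 to 8.77 and 19.2. The Lcorl peak touched the flank alone, over 0.598% of the region. The nearest WT peak lay 5.14 kb from Hcfc1 and 231 kb from Lcorl. Sfmbt2, an imprinted Polycomb gene named here after its values were seen, had its starts under the strongest of these domains, with maxima of 103 in WT and 85.1 in Utx-cKO, at percentile 97.3 in both.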

How the data were processed

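H3K27me3 CUT&RUN was analysed from 2 peak lists, 1 per genotype, out of 12 libraries (3 H3K27me3 and 3 IgG per genotype). Per the file headers, the peaks are SEACR calls (spelled SECAR) on data merged from all samples of a group. The deposited lists give each peak's total signal, the peak caller's score (coverage summed over the peak), and its maximum signal (highest coverage), both the authors' own. The sources used here do not give their scale and normalization, nor the caller's settings. Columns carry no names and were read in SEACR order. The tools named in the submitters' processing notes are deepTools, bedtools 2.27.1, SAMtools 1.9 and Bowtie2 2.3.4.3, and the builds are mm10, GRCm38 and sacCer3.

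Starts were converted to 1-based positions. Gene borders came from RefSeq GRCm38.p6, and starts, strand and promoters from its promoter table, which held 32 of the 38 genes. For the other 6 genes either gene end stood in for the start. Overlap code was checked on simulated intervals against a base-by-base count. Python 3.11.15, pandas 2.3.3, NumPy 2.4.6 and matplotlib 3.10.9 were used. Genes and lists were chosen with earlier results of these data known. Named were all marked genes, the demethylases and methyltransferases, the 5 unmarked genes nearest to a peak and, in the further lists, those that differed and up to 6 marked in both. Uty and Kdm5d, on Y, were not counted.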

Additional observations from a re-analysis of the deposited data

How the results depend on the processing

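Ezh1, Ezh2, Eed, Kdm6a and Kdm6b lay 15.4 kb or more from any peak. The flanks tried were 5 kb at most, so no setting could have marked these genes. Which of the other genes were marked rested on the rule at the gene's edge. The 4 WT and 5 Utx-cKO genes became 2 and 3 with the gene body alone, 4 and 2 within 2 kb of a start, 1 and 1 (Rbbp7) with 50% of the region covered, and 2 and 2 (Pcgf1 and Phc1) in the top 50% of each list. With 5 kb flanks they were 5 and 7, with Bmi1 added in both and Phf19 in Utx-cKO. Genes marked in 1 list alone, 1 in WT and 2 in Utx-cKO, became 0 and 1 with the gene body or with 1 kb covered, 2 and 0 within 2 kb of a start, and 0 and 0 with 50% covered or in the top 50%. They were the same number at a common floor of signal, with equal numbers of peaks, without X and with a 10 kb allowance for a counterpart. By the main rule 1.64% of all protein-coding genes were marked in WT alone and 3.13% in Utx-cKO alone. These shares were not computed at the other settings, so the shifts in these small counts cannot be set against all genes. Of all protein-coding genes, 1565 (7.23%) in WT and 1690 (7.81%) in Utx-cKO were marked with 50% covered, against 3894 and 4217. The lists pool the animals of a group, so leaving out an animal was not run. No paired analysis was possible because neither list gives values per animal. Depth is unknown, so a gene without a peak is a gene where none was called.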

Other observations

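Genes for the methylation of other histone residues were counted by the same rule. Of 37 such genes in the annotation, 5 (13.5%) carried a peak in WT and 5 (13.5%) in Utx-cKO, and 4 in both. Among all protein-coding genes 18.0% did in WT and 19.5% in Utx-cKO. On autosomes the marked genes were 3 of 34 (8.82%) in WT and 2 of 34 (5.88%) in Utx-cKO, against 16.1% and 17.6% of autosomal protein-coding genes. On X they were 2 of 3 and 3 of 3, against 59.4% and 60.6% of X-linked protein-coding genes. Phf8, an X-linked histone demethylase, was covered over 83.0% of its region in WT and 80.6% in Utx-cKO. Suv39h1, an X-linked methyltransferase of lysine 9 of histone H3, was covered over 83.7% and 22.3%. Smyd1, a methyltransferase gene of heart and muscle, was covered over 32.9% and 25.2% on chromosome 6. Kdm3a, a lysine 9 demethylase gene, was touched at its flank over 0.292% and 0.812%. Kdm4d, a demethylase gene of testis, had a WT peak of 19.3 kb at percentile 31.1 inside the gene and no Utx-cKO peak within 215 kb. Kdm5c, an X-linked lysine 4 demethylase gene, had a Utx-cKO peak at percentile 8.6 that ended 398 bp before it.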
